A study of Mus musculus with 8 samples.

Results

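The genes described here encode the enzymes of the hepatic methionine cycle and of transsulfuration, together with nicotinamide N-methyltransferase. They are Mat1a, Mat2a, Mat2b, Gnmt, Ahcy, Cbs, Cth, Mtr, Mtrr and Nnmt, listed for their known role in these steps. All 10 were listed in both assays, among 24079 gene symbols that the assays share.

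Methionine adenosyltransferase turns methionine into S-adenosylmethionine (SAM), the methyl donor of most methylation reactions. Methyltransferases such as GNMT and NNMT leave S-adenosylhomocysteine, which AHCY splits into adenosine and homocysteine. Homocysteine is either methylated back to methionine, by methionine synthase with folate or by BHMT with betaine, or passed through CBS and CTH to cysteine. The liver carries most of this flux, and betaine given in the diet enters it at the BHMT step.

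Livers came from male C57BL/6 mice in both groups. The HF group was kept on high-fat feed with 45% of energy from fat, and the HB group had the same feed with betaine dissolved at 2% (w/v) in the water. Both diets started at week 8 and livers were taken at week 25. The labels also state a feeding time of 25 weeks, whereas these ages leave 17 weeks. The comparison therefore concerns betaine on top of a high-fat diet, and mice on a standard diet were not analysed here. RNA-seq measured polyadenylated mRNA, and Ribo-seq measured ribosome-protected fragments (RPF), the short pieces of transcript covered by a ribosome during nuclease digestion. Each group had 2 libraries per assay, HF1 and HF2 against HB1 and HB2. The protocol mentions RNA preparations being pooled, whereas the study's methods describe mice picked by body weight for sequencing, and the labels do not settle which holds. The p-values measure only the spread between these libraries, which may in part be technical.

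The values were RPKM, reads per kilobase of a gene scaled to the total of its library, and the reads behind them were recovered from their steps. RNA-seq libraries held 11661207 to 22543471 reads and Ribo-seq libraries 141890 to 1056546, the HB Ribo-seq libraries being the 2 shallowest. Protein-coding genes took 97.8% to 98.9% of the recovered RNA-seq reads, but of the Ribo-seq reads they took 93.6% and 92.7% in HF and 88.3% and 81.9% in HB. All 7 hepatocyte markers were above 0 in every library. Their summed mRNA level was 43963 and 46272 RPKM in HF against 53165 and 50760 RPKM in HB, with a median log2 change of 0.21. In RPF their sums overlapped between groups. Summed mRNA levels of Kupffer cell markers were 122 and 146 RPKM in HF against 169 and 158 RPKM in HB, and those of lymphocyte markers 5.86 and 8.66 in HF against 3.18 and 2.87 in HB. In RPF the Kupffer sums were 210 and 163 RPKM in HF and 198 and 96.6 RPKM in HB, with a median log2 change of -0.59. The groups overlapped there, as they did for lymphocyte sums in RPF. Stellate cell markers were at 32.0 and 31.3 RPKM in HF and 69.5 and 40.0 RPKM in HB in mRNA, while the median log2 change over the list was -0.02, and in RPF at 134 and 111 RPKM in HF and 93.1 and 83.6 RPKM in HB with a median of -1.04. Endothelial (52.4 to 63.5 RPKM), adipocyte (9.57 to 30.9 RPKM) and cholangiocyte (2.02 to 4.16 RPKM) sums overlapped between groups. The part of these markers in the results was not tested. In Ribo-seq the defining markers Krt7, Epcam, Cd79a, Adipoq and Plin1 were at 0 in all 4 libraries. No marker was called in mRNA, and in RPF 2 of 5 endothelial markers were called lower in HB, beside 7.86% of all tested genes, and no marker of the other lists was called. Fewer cells of a type and less RNA per cell cannot be told apart in such bulk tissue.

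The sequence that a reader most needs is that of Ahcy, since its reads could not be assigned with confidence. Of its 1272 coding stretches of 28 bases, about the size of an RPF, 98.7% also occurred in transcripts of other genes, and 93.0% occurred in Gm4737, 79.8% in Gm9826, 27.8% in Gm5638 and 9.83% in Gm4913, of which only Gm4737 was among the listed symbols. Gm4737 is annotated by GENCODE as a protein-coding gene with 1 exon at chr16:46152985-46155077 (GRCm38, minus strand), while Ahcy has 10 exons at chr2:155059310-155074497 (minus strand). Over the 1299 coding bases the genes differed at 4 positions and were 99.7% identical. The window of 60 coding bases with the most differences is shown first, at chr2:155064867-155064926 for Ahcy and chr16:46154508-46154567 for Gm4737, 5′ to 3′ on the coding strand and with the differing bases in capitals:
Ahcy: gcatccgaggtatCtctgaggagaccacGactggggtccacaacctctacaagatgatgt
Gm4737: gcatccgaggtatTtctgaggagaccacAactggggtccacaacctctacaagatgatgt

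Counted from 1 at the 5′ end of this window, the differences from Ahcy to Gm4737 are C14T and G29A. An RPF from elsewhere in the coding sequence usually cannot tell these genes apart, as in the following stretch, which starts at coding base 29 of Ahcy and is shared without a mismatch by chr2:155068959-155069018 and chr16:46154925-46154984:
Ahcy and Gm4737: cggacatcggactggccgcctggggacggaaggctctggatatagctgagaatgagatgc

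Gnmt, the only gene of the 10 whose mRNA was called different, had no coding stretch of 28 bases in common with another gene. Its 120 bases before the RefSeq start site (GRCm38.p6, chr17:46729166-46729285, minus strand) are printed with the motif found there in capitals, which is CCAAT on the opposite strand:
Gnmt: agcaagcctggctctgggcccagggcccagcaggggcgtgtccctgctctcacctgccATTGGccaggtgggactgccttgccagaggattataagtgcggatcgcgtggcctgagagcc

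RefSeq promoters were matched for 7 of the 10 genes (Ahcy, Cbs, Gnmt, Mat2a, Mat2b, Mtr and Mtrr), and 5 motifs were searched on both strands of the same window. CCAAT was found in 6 of these 7 genes, all except Ahcy, against 21.3% of 32851 promoters. GGGCGG was found in 6 of the 7, all except Gnmt, against 26.5% of promoters. TATAAA was found in Mat2a and in 6.34% of promoters. CACGTG and TGACTCA were in none of the 7 and in 3.66% and 2.30% of promoters. These matches describe letters in a window and say nothing of a factor's binding.

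**Figure D1:**
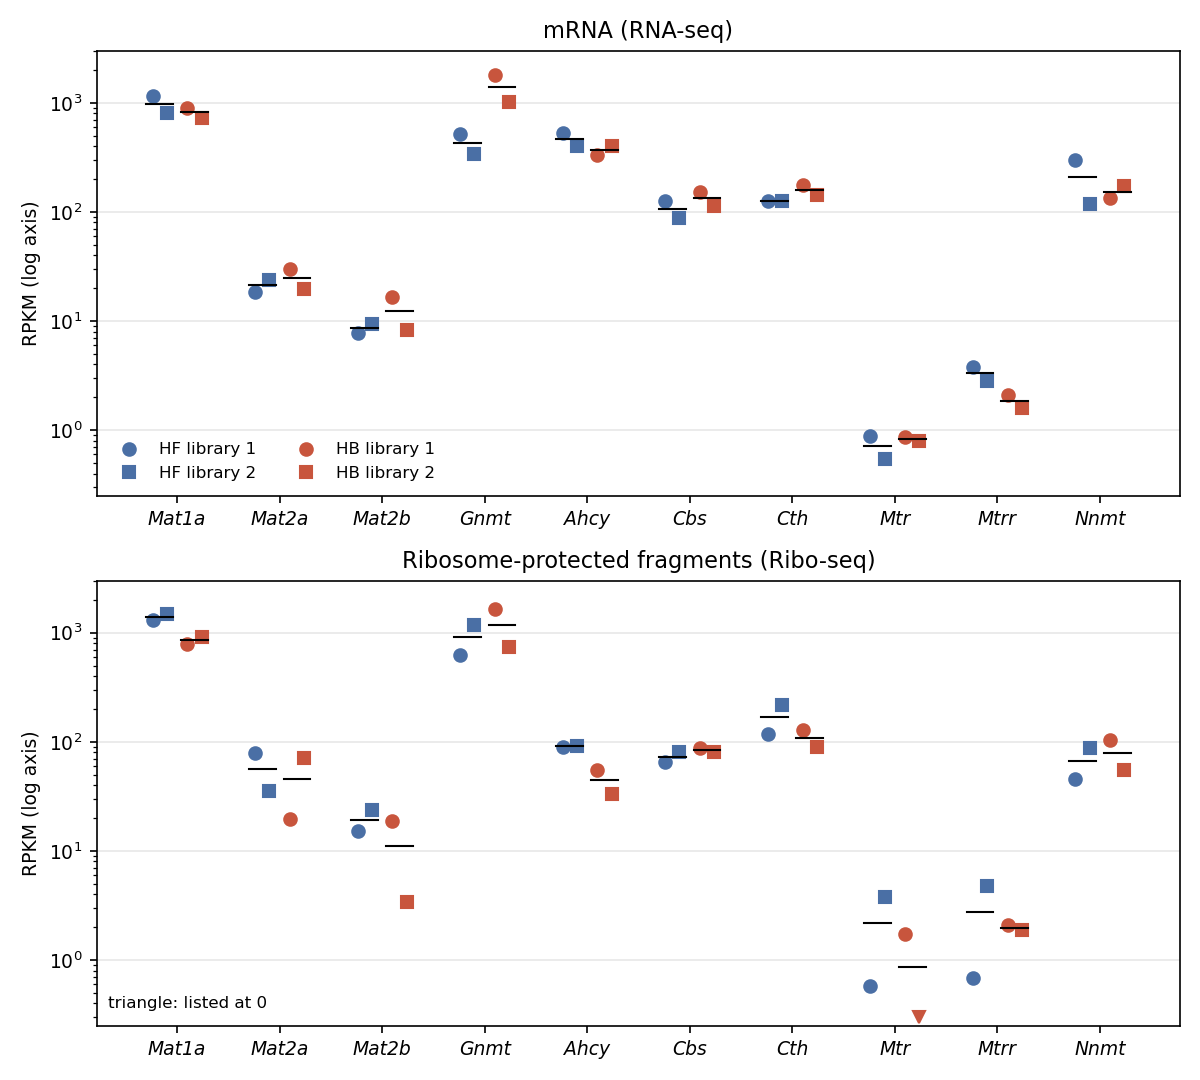
RPKM of the 10 genes in each library on a log axis, mRNA above and RPF below, HF in blue and HB in red, with circles for library 1, squares for library 2 and black bars for group means of 2 libraries. Gnmt mRNA lies at 342 and 517 RPKM in HF and at 1016 and 1792 RPKM in HB, and Ahcy RPF lies at 89.3 and 92.4 RPKM in HF and at 55.1 and 33.3 RPKM in HB.

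Group means of these genes spanned 0.713 to 1404 RPKM in mRNA. On the mRNA scale in HF livers, mean RPKM fell in the order Mat1a (982), Ahcy (461), Gnmt (429), Nnmt (208), Cth (127), Cbs (107), Mat2a (21.2), Mat2b (8.57), Mtrr (3.31) and Mtr (0.713). Ahcy and Gnmt overlapped in their libraries, as did Nnmt and Cth, and the other neighbours in this order did not. The level of Ahcy counts only the reads listed under it. Its near copy Gm4737 stood at 1168 and 922 RPKM in HF and at 944 RPKM in both HB libraries. The place of Ahcy in either group therefore depends on how reads that fit both genes were split. In HB livers Gnmt stood first with a mean of 1404 RPKM, above Mat1a at 819, and neither HB library of Gnmt overlapped those of Mat1a. Below Ahcy in HB, Cth, Nnmt and Cbs followed at 160, 153 and 133 RPKM, and each of them overlapped with the next. Among all RNA-seq symbols ranked by group mean, Mat1a was in place 67 in HF and Gnmt moved from place 193 in HF to place 53 in HB. Together the 10 genes, without the reads listed under Gm4737, took 0.480% to 0.680% of the reads of an RNA-seq library. Gnmt made up 7.84% and 7.34% of these reads in HF against 27.3% and 19.4% in HB.

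On the RPF scale Mat1a and Gnmt were the top genes, with means of 1385 and 905 RPKM in HF and of 853 and 1183 RPKM in HB, and their HB libraries overlapped. The lengths behind the RPKM were longer than the coding sequence for all 10 genes, which came to 34.2% of the length for Mat1a and 95.5% for Gnmt. The sources used here do not give the span in which RPF were counted, untranslated ends included or left out. RPF levels of different genes may thus be on unequal scales. The study reported a larger share of RPF in coding sequence with betaine than without. HB and HF within a gene may therefore differ in scale too, which was not tested. For Mat2a, Mat2b, Gnmt, Mtrr and Nnmt the Ribo-seq length was 1.12, 1.11, 0.895, 0.842 and 1.15 times the RNA-seq length, which scales their ratio of RPF to mRNA in the same way in both groups.

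The spread between the libraries of a group was sizeable beside most differences between groups. The higher library exceeded the lower by a median of 1.38 times in HF and 1.31 times in HB in mRNA, and by 1.87 and 1.66 times in RPF, over the 10 genes except Mtr in HB RPF, where HB2 was at 0. In mRNA HF1 was above HF2 for 8 of the genes and HB1 above HB2 for 8. In RPF HF1 was above HF2 for 1 gene only, Mat2a, and HB1 was above HB2 for 8.

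Each measure was compared between HB and HF with limma on log2(RPKM + 1) over all genes with a mean of at least 1 RPKM, and fold changes below are on that scale. A gene was called, by the thresholds of the study, at a log2 change past 1 with p under 0.001 for mRNA, past 1 with p under 0.05 for RPF, and past 2 with p under 0.05 for translation efficiency (TE), the ratio of RPF to mRNA. Of 9 genes tested in mRNA, 1 (Gnmt) was called higher and 0 lower, where 2.3% of all 10687 tested genes were called higher and 6.56% lower. At an adjusted p under 0.05 the same gene alone passed, against 7.92% of all genes higher and 19.1% lower. Of 10 genes tested in RPF, 0 were called higher and 1 (Ahcy) lower, where 1.58% of all 11190 tested genes were called higher and 7.86% lower. For TE 0 of 9 tested genes were called and 0 had an unadjusted p under 0.05 in limma, where 6.09% of 9455 genes were called in either direction.

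The median log2 change was 0.20 over the 9 genes tested in mRNA, -0.52 over 10 in RPF and -0.66 over 9 in TE, beside -0.19, -0.43 and -0.35 over all tested genes. In mRNA 5 were higher and 4 lower in HB, and the split was 6 and 3 when libraries were shifted to a common median. In RPF 3 were higher and 7 lower, with 4 and 6 at a common median or scaled to protein-coding reads and 0 and 10 at a common RPKM sum. In TE 2 were higher and 7 lower, with 3 and 6 or 1 and 8 under these scalings. The groups did not overlap for 3 genes in mRNA, 2 in RPF and 4 in TE, where 68.1%, 42.3% and 45.2% of all tested genes did not. The TE count rests on libraries matched by number, which the sources do not tie to one animal. With the numbers crossed the count was 5 of the 10 genes, and the share over all genes was not computed for that matching. Gnmt, Ahcy and Cth were in both counts, Mat2b in the first only and Mat1a and Nnmt in the second only. All were lower in HB except Nnmt, which was higher. The Ahcy ratios leave out the reads listed under its near copy Gm4737.

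**Figure D2:**
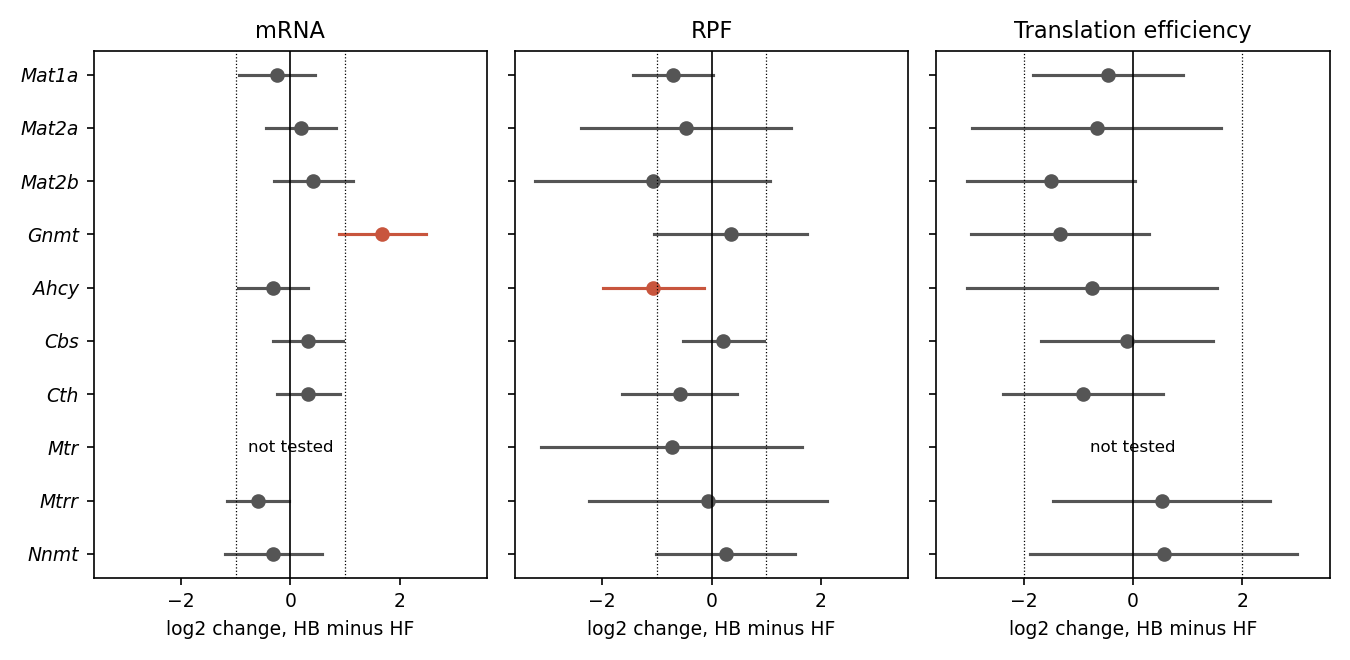
Log2 change of HB minus HF with its 95% confidence interval from limma for mRNA, RPF and TE, with dotted lines at the fold thresholds and called genes in red. The mRNA change of Gnmt (1.68) and the RPF change of Ahcy (-1.07) met both the fold and the p threshold, the RPF change of Mat2b (-1.08) met the fold threshold only, and Mtr was below the level tested in mRNA and TE.

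Synthesis of SAM is carried out in adult liver by the product of Mat1a, located at chr14:41105035-41124412 (plus strand, 10 exons). Its mRNA was at 1163 and 801 RPKM in HF1 and HF2 and at 905 and 733 RPKM in HB1 and HB2, so the groups overlapped, and the log2 change was -0.24 with a 95% interval of -0.94 to 0.45 (limma, adjusted p = 0.585). Its RPF were at 1302 and 1469 RPKM in HF and at 790.0 and 916 RPKM in HB, resting on 1761, 5410, 708 and 453 reads. Both HB libraries were thus below both HF libraries, with means of 1385 ± 118 and 853 ± 89.0 RPKM (SD, n = 2). The log2 change of -0.70, with an interval of -1.43 to 0.03, was short of the thresholds (limma, unadjusted p = 0.0570, adjusted p = 0.505). It was -0.38 at a common median (limma, unadjusted p = 0.299) and -0.57 scaled to protein-coding reads, while at a common RPKM sum it was -1.58 and met the RPF thresholds.

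Mat2a encodes the catalytic subunit found in most tissues, and Mat2b its regulatory subunit. Over the coding sequence Mat1a and Mat2a were 74.1% identical, with a longest shared run of 15 bases, and so were separable by reads of RPF size. Of the Mat2a coding stretches, however, 46.7% also occurred in 3 other genes, most of them in Gm9523, which was not among the listed symbols, so Mat2a values are uncertain to that extent. Mat2a, at chr6:72432799-72439558 (minus strand, 9 exons), had mRNA levels of 18.6 and 23.8 RPKM in HF and 30.2 and 19.4 RPKM in HB. Its RPF were at 78.6 and 35.2 RPKM in HF and 19.8 and 71.6 RPKM in HB. The groups overlapped in both measures, and the log2 changes were 0.20 (95% interval -0.45 to 0.84) in mRNA and -0.47 (-2.39 to 1.46) in RPF. Mat1a mRNA exceeded Mat2a mRNA by 62.6 and 33.6 times in HF and by 30.0 and 37.7 times in HB.

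Mat2b, at chr11:40679314-40695203 (minus strand, 7 exons), had 7.80 and 9.34 RPKM of mRNA in HF and 16.6 and 8.28 RPKM in HB. HB1 was the high library, and the groups overlapped (log2 change 0.42, limma adjusted p = 0.355). Its RPF stood on 12, 51, 10 and 1 reads, or 15.1, 23.5, 18.9 and 3.43 RPKM in the same order, and the log2 change of -1.08 had an interval of -3.22 to 1.07. Without HB2, where a single read was counted, that change was 0.0074.

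Use of SAM in liver is led by glycine N-methyltransferase, GNMT, which methylates glycine to sarcosine and takes up excess SAM. Gnmt lies at chr17:46725664-46729168 (minus strand, 6 exons). Its mRNA was at 517 and 342 RPKM in HF and at 1792 and 1016 RPKM in HB, from 6218, 4168, 41682 and 18969 reads. Both HB libraries were above both HF libraries, and the means were 429 ± 124 and 1404 ± 548 RPKM (SD, n = 2), a ratio of 3.27. The log2 change was 1.68 ± 0.36 (SE) with a 95% interval of 0.88 to 2.48 (limma, unadjusted p = 0.000906, adjusted p = 0.0107), which placed Gnmt at percentile 99.0 of all tested changes. The gene was called in 12 of 15 alternative analyses, in which the change ran from 1.27 to 2.09 and the adjusted p from 2.33e-05 to 0.0709. Without HB1 the change was 1.27 (unadjusted p = 0.00145 in limma) and without HF2 it was 1.38 (unadjusted p = 0.00641 in limma), both short of the p threshold, and with no filter on low genes the unadjusted p was 0.00767 in limma.

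The summed mRNA of 6 pericentral hepatocyte markers was 3324 and 3479 RPKM in HF and 5675 and 5812 RPKM in HB, and that of 6 periportal markers 5028 and 3695 in HF and 4290 and 4587 in HB. No gene of either list was called, and their part in the Gnmt result was not tested. In RPF the pericentral sum was 4250 and 5514 RPKM in HF and 3861 and 4142 RPKM in HB.

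Gnmt RPF did not follow the same split. They were at 625 and 1185 RPKM in HF and 1633 and 732 RPKM in HB, from 224, 1157, 388 and 96 reads, with HB1 the highest and HF1 the lowest of the 4 libraries. The log2 change was 0.35 with a 95% interval of -1.06 to 1.75 (limma, adjusted p = 0.827), an interval that holds both no change and the change of the mRNA. It was -0.23 without HB1, -0.12 without HF1 and -0.53 at a common RPKM sum. The TE of Gnmt was 1.21 and 3.47 in HF and 0.912 and 0.720 in HB, so both HB ratios were below both HF ratios. The log2 change in TE was -1.34 with an interval of -2.97 to 0.30 (limma, unadjusted p = 0.0921, adjusted p = 0.476), and at a common RPKM sum it was -2.17 and met the TE thresholds. It was -2.09 without HF1 and -0.58 without HF2. The interaction of assay and group in a joint model of all 8 libraries gave an adjusted p of 0.411, and RNA-seq and Ribo-seq libraries matched across numbers gave 0.496.

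**Figure D3:**
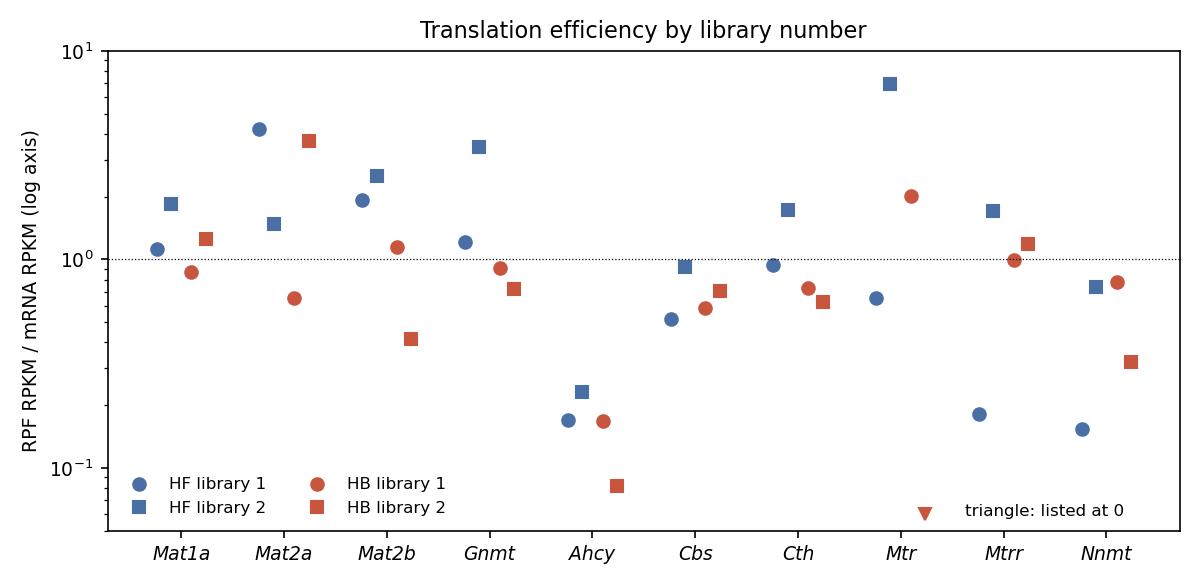
Translation efficiency of the 10 genes, the ratio of RPF to mRNA RPKM of libraries with the same group and number, on a log axis, with HF in blue and HB in red and a dotted line at 1. With libraries matched in this way both HB ratios lie below both HF ratios for Mat2b, Gnmt, Ahcy and Cth (with the numbers crossed, for Gnmt, Ahcy and Cth but not Mat2b), and the Mtr ratio of HB2 is listed at 0. Ahcy ratios use only the reads listed under Ahcy, without those of Gm4737.

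Within each RNA-seq library the Gnmt level was divided by that of Mat1a, a pair chosen after the values were seen, which gave 0.444 and 0.427 in HF and 1.98 and 1.39 in HB. Gnmt mRNA was thus the lower of the pair in both HF libraries and the higher in both HB libraries. The same ratio in RPF was 0.480 and 0.807 in HF and 2.07 and 0.800 in HB, and the groups overlapped. With 2 libraries against 2, an exact permutation test of any such ratio cannot go below p = 0.3333, so the ratios are given as descriptions.

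Nnmt, which methylates nicotinamide and so draws on SAM, lies at chr9:48591877-48605153 (minus strand, 3 exons). Its mRNA was at 297 and 119 RPKM in HF and at 133 and 173 RPKM in HB, so the HF libraries were the outer ones and the HB libraries fell between them. Its RPF were at 45.8 and 87.8 RPKM in HF and at 104 and 55.7 RPKM in HB, on 18, 94, 27 and 8 reads. The log2 changes were -0.31 (95% interval -1.20 to 0.58) in mRNA and 0.26 (-1.01 to 1.53) in RPF, and neither passed the test (limma, adjusted p = 0.591 and 0.854). Without HF1, the high library, the mRNA change was 0.34.

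Hydrolysis of S-adenosylhomocysteine, a product that inhibits most methyltransferases, is the task of AHCY. Ahcy mRNA was at 524 and 399 RPKM in HF and at 330 and 405 RPKM in HB, overlapping, with a log2 change of -0.32 (95% interval -0.96 to 0.32, limma adjusted p = 0.422). Ahcy RPF were at 89.3 and 92.4 RPKM in HF and at 55.1 and 33.3 RPKM in HB, from 88, 248, 36 and 12 reads. Both HB libraries were below both HF libraries, with means of 90.8 ± 2.20 and 44.2 ± 15.4 RPKM (SD, n = 2). The log2 change was -1.07 ± 0.36 (SE) with an interval of -1.99 to -0.15, which met the study's RPF thresholds but not an adjusted one (limma, unadjusted p = 0.0311, adjusted p = 0.493). No gene of the 11190 had an adjusted p under 0.05 in RPF, and 1122 had an unadjusted p under 0.05. The lower RPF level was called in 7 of 15 alternative analyses, with changes from -1.92 to -0.20. Leaving out HF1, HF2 or HB2 ended the call, at -1.09, -1.04 and -0.71, a common median gave -0.74 and scaling to protein-coding reads gave -0.94, both not called.

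The near copy Gm4737, with the sequence shown above, was listed at higher levels than Ahcy in both assays. Its mRNA was at 1168 and 922 RPKM in HF and at 944 RPKM in both HB libraries, and its RPF were at 638 and 619 RPKM in HF and 630.0 and 554 RPKM in HB. Neither measure was called (log2 change -0.14 in mRNA and -0.09 in RPF, limma adjusted p = 0.751 and 0.906). Ahcy held 35.3% and 34.5% of the RNA-seq reads of the pair in HF and 29.9% and 34.3% in HB. Of the Ribo-seq reads of the pair it held 14.5% and 15.4% in HF and 9.63% and 6.82% in HB. When the reads of both were added, they came to 0.156% and 0.153% of the Ribo-seq reads in HF and to 0.145% and 0.124% in HB, and the log2 change of the summed RPF was -0.20 and was not called (limma, adjusted p = 0.789). The lower RPF level is therefore a value of the reads listed under Ahcy, and the summed level of both genes did not pass the test. How reads that fit both genes were assigned is not given in the sources used here.

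**Figure D4:**
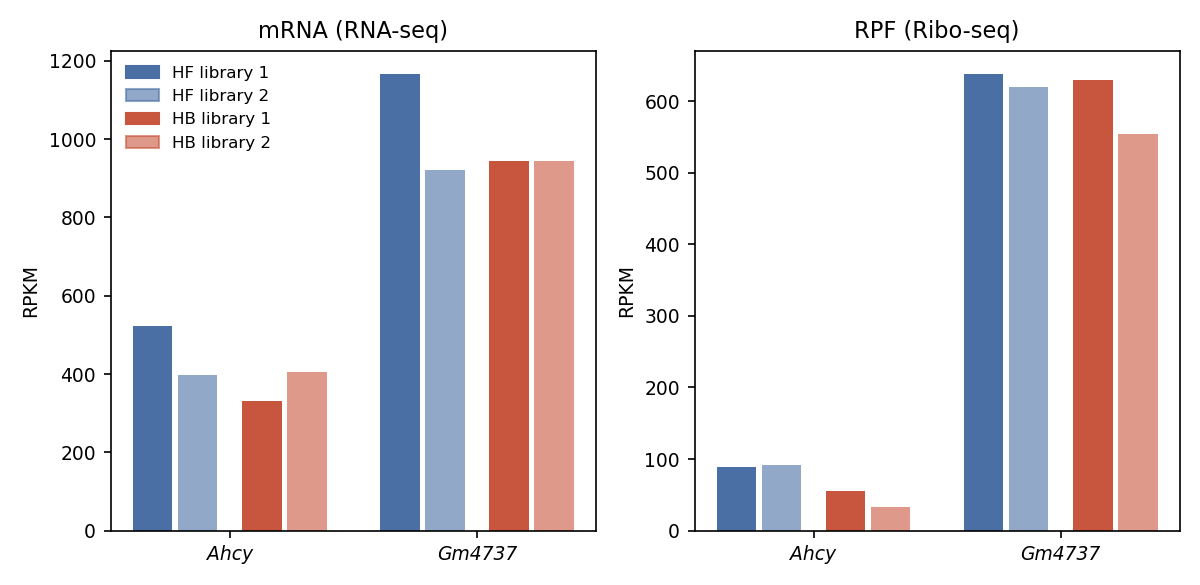
RPKM of Ahcy and of its near copy Gm4737 in each library, mRNA on the left and RPF on the right, with axes from 0, HF in blue, HB in red and library 2 in the paler shade. In RPF Gm4737 stands at 554 to 638 RPKM in all 4 libraries, while Ahcy stands at 89.3 and 92.4 RPKM in HF and at 55.1 and 33.3 RPKM in HB.

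The ratio of Gnmt to Ahcy set SAM use beside hydrolysis of its product. In mRNA it was 0.986 and 0.857 in HF and 5.43 and 2.51 in HB, and in RPF 7.0 and 12.8 in HF and 29.6 and 22.0 in HB. The groups did not overlap in either assay. Set over the summed reads of Ahcy and Gm4737, Gnmt reads came to 0.142 and 0.120 in HF and 0.658 and 0.350 in HB in RNA-seq, still apart, but to 0.370 and 0.717 in HF and 1.04 and 0.545 in HB in Ribo-seq, where the groups overlapped.

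Remethylation of homocysteine with folate needs methionine synthase, encoded by Mtr, and its reductase, encoded by Mtrr, which restores the cobalamin of the enzyme. Both were the lowest of the 10 genes in mRNA. Mtr, at chr13:12182712-12258113 (minus strand, 33 exons), was at 0.880 and 0.547 RPKM in HF and at 0.861 and 0.789 RPKM in HB on 46, 29, 87 and 64 reads, below the mean of 1 RPKM needed for the test. Mtrr, at chr13:68560780-68582149 (minus strand, 15 exons), was at 3.78 and 2.84 RPKM in HF and at 2.10 and 1.59 RPKM in HB. Both HB libraries of Mtrr were below both HF libraries, and the log2 change of -0.60 (95% interval -1.16 to -0.03) was not called (limma, unadjusted p = 0.0402, adjusted p = 0.106). Within a library, Mtr mRNA was 0.233 and 0.193 times Mtrr mRNA in HF and 0.411 and 0.496 times in HB. RPF of these genes, which are part of the RPF counts and median above, rested on few reads, with 1, 18, 2 and 0 reads for Mtr and 1, 19, 2 and 1 for Mtrr in HF1, HF2, HB1 and HB2. In HB2 a count of 3 reads would put Mtr at 4.72 RPKM, and a difference below that was not detectable.

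Transsulfuration starts with CBS, which joins homocysteine to serine, and continues with CTH, which releases cysteine. Cbs, at chr17:31608894-31637238 (minus strand, 17 exons), had mRNA at 126 and 87.8 RPKM in HF and at 152 and 114 RPKM in HB. HB1 was the highest and HF2 the lowest library, and the groups overlapped (log2 change 0.32, 95% interval -0.33 to 0.97, limma adjusted p = 0.429). Cbs RPF were at 65.0 and 80.9 RPKM in HF and at 88.6 and 80.3 RPKM in HB, with a log2 change of 0.22 (-0.52 to 0.95).

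Cth, at chr3:157894248-157925077 (minus strand, 12 exons), had 127 and 126 RPKM of mRNA in HF and 175 and 144 RPKM in HB. Both HB libraries were above both HF libraries, by a log2 change of 0.32 (95% interval -0.25 to 0.90) that did not pass the test (limma, adjusted p = 0.371). Its RPF were at 119 and 218 RPKM in HF and at 127 and 90.0 RPKM in HB, overlapping, with a log2 change of -0.58 (-1.64 to 0.47), which was -1.45 and called at a common RPKM sum. The TE of Cth was 0.935 and 1.72 in HF and 0.728 and 0.624 in HB, a log2 change of -0.91 that was not called (limma, adjusted p = 0.569). The ratio of Cbs to Cth overlapped between groups in mRNA, while in RPF it was 0.547 and 0.371 in HF and 0.695 and 0.892 in HB.

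TE of the remaining genes was not called either. Mat2b had ratios of 1.93 and 2.52 in HF and 1.14 and 0.415 in HB, a log2 change of -1.50 (95% interval -3.03 to 0.03, limma unadjusted p = 0.0534). With library numbers crossed between the assays, the Mat2b ratios were 1.61 and 3.01 in HF and 2.29 and 0.207 in HB, so the groups overlapped (limma, unadjusted p = 0.222). The Mat2b change in TE was -2.12 without HB1, which leaves the HB2 value of 1 read, and -0.87 without HB2. At a common RPKM sum it was -2.22 and met the TE thresholds. Ahcy had TE of 0.170 and 0.232 in HF and 0.167 and 0.0823 in HB, a log2 change of -0.74. With the reads of Ahcy and Gm4737 summed, that change was -0.0029. Mat1a, Mat2a, Cbs, Mtrr and Nnmt overlapped between groups, with log2 changes from -0.66 for Mat2a to 0.57 for Nnmt.

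The genes that feed or leave this cycle were described by 8 lists of 41 other genes, all of which were listed in both assays, Sqor under its older symbol Sqrdl in RNA-seq and without a TE value for that reason. In mRNA 25 were higher and 16 lower in HB, with a median log2 change of 0.25, and at a common median the split was 33 and 8. Of these 41 genes, 3 were called higher and 0 lower, beside the 2.3% and 6.56% of all genes, and at an adjusted p under 0.05 in limma 7 were higher and 5 lower, beside 7.92% and 19.1%. In RPF 39 were tested, with 1 called higher and 2 lower, beside 1.58% and 7.86% of all genes. In TE 38 were tested and 5 called, 2 higher and 3 lower, beside 6.09% of all genes called in either direction. In RPF 19 were higher and 20 lower, against 4 and 35 at a common RPKM sum. The calls moved with the scaling and the libraries. At a common RPKM sum 0 were called higher and 10 lower in RPF and 0 and 9 in TE, and without HB1 the counts were 3 and 8 in RPF and 2 and 6 in TE. With any other library left out, 0 to 2 were called higher and 1 lower in RPF, and 1 to 2 higher and 0 to 1 lower in TE.

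Betaine-dependent remethylation depends on BHMT, which moves a methyl group from betaine to homocysteine. Bhmt mRNA was at 1762 and 741 RPKM in HF and at 1280 and 1444 RPKM in HB, so the HB libraries lay between the HF libraries (log2 change 0.25, 95% interval -0.65 to 1.15, limma adjusted p = 0.671). Bhmt RPF were at 422 and 1332 RPKM in HF and at 980 and 432 RPKM in HB, a log2 change of -0.20 (-2.02 to 1.61).

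Among the genes that use cysteine and sulfide, 7 of 8 were higher in HB mRNA, with a median of 0.68. Of these 8, 2 were called higher, beside 2.3% of all tested genes. At an adjusted p under 0.05 in limma 3 were higher, beside 7.92% of all genes. Suox, the sulfite oxidase, was at 10.9 and 8.71 RPKM in HF and at 66.6 and 32.9 RPKM in HB, a log2 change of 2.15 ± 0.34 (SE, limma adjusted p = 0.00526). Sqor, the sulfide:quinone oxidoreductase, was at 18.3 and 20.5 RPKM in HF and at 94.5 and 53.1 RPKM in HB, a log2 change of 1.82 ± 0.31 (SE, limma adjusted p = 0.00583). Both calls were lost only with no filter on low genes, among 15 alternatives. The RPF of neither were called, with log2 changes of 0.21 (95% interval -0.54 to 0.97) for Suox and 0.25 (-0.44 to 0.94) for Sqor.

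In RPF the same list held 1 gene called in each direction, beside 1.58% of all tested genes called higher and 7.86% called lower. Ethe1, the persulfide dioxygenase, was at 5.50 and 15.1 RPKM in HF and at 41.5 and 30.1 RPKM in HB on 31 reads in all, a log2 change of 1.83 (limma, unadjusted p = 0.0251, adjusted p = 0.493). Its mRNA was higher too, at 15.2 and 11.4 RPKM in HF and 25.8 and 33.7 RPKM in HB. That log2 change of 1.11 was not called (limma, adjusted p = 0.0169). Csad, which makes hypotaurine, was at 33.7 and 21.5 RPKM in HF and at 10.9 and 4.39 RPKM in HB. The log2 change was -1.80 (limma, unadjusted p = 0.0263, adjusted p = 0.493). Its mRNA went the other way, at 13.1 and 18.2 RPKM in HF and 20.3 and 31.5 RPKM in HB. The mRNA log2 change of 0.67 was not called (limma, unadjusted p = 0.0459, adjusted p = 0.116). The Csad RPF call rested on 42 and 73 reads in HF and on 9 and 2 in HB. HB2 was thus below the floor of 3 reads. Leaving out HF1 or HB2 ended both calls, as did leaving out HB1 or a common RPKM sum for Ethe1 and leaving out HF2 for Csad, with changes of 1.02 to 2.48 and -2.59 to -1.23 over the alternatives.

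Of the 6 genes that supply cobalamin to methionine synthase, 3 were higher and 3 lower in mRNA, or 5 and 1 at a common median. Mmadhc, which directs cobalamin to its enzymes in the cell, was called higher at 19.0 and 18.9 RPKM in HF against 55.9 and 46.2 RPKM in HB, a log2 change of 1.38 ± 0.25 (SE, limma adjusted p = 0.00683). The call was lost without HF1 and without HF2, and the change stayed between 1.24 and 1.65 over 15 alternatives. The RPF of Mmadhc, on 46 reads, overlapped between groups with a log2 change of 0.05 (95% interval -0.96 to 1.05). Abcd4, which moves cobalamin out of the lysosome and was chosen after its values were seen, had mRNA at 26.9 and 13.4 RPKM in HF against 4.56 and 7.70 RPKM in HB, a log2 change of -1.53 that missed the p threshold of a call (limma, unadjusted p = 0.00167, adjusted p = 0.0146).

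Glutathione synthesis uses the cysteine of transsulfuration. Of its 3 genes, 1 was called lower in RPF, beside 7.86% of all tested genes. That gene was Gclm, the modifier subunit of glutamate-cysteine ligase, at 94.5 and 78.6 RPKM in HF and at 48.8 and 34.0 RPKM in HB. Its log2 change of -1.06 (limma, unadjusted p = 0.0244, adjusted p = 0.493) was called in 8 of 15 alternatives and ran from -1.92 to -0.74. It was not called at a common median or scaled to protein-coding reads, nor without HF1, HF2 or HB2. In mRNA 1 of these genes was higher and 2 lower, none called, or 2 and 1 at a common median. Gclc, the catalytic subunit of that ligase, was at 99.0 and 110.9 RPKM of mRNA in HF and at 55.7 and 53.2 RPKM in HB, a log2 change of -0.93 that was short of the fold threshold (limma, adjusted p = 0.0232, chosen after its values were seen).

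The 7 other small-molecule methyltransferases that use SAM held no call in mRNA or RPF. In mRNA 5 were higher and 2 lower in HB with a median log2 change of 0.88, and 6 and 1 at a common median, where 1 was called. At an adjusted p under 0.05 in limma 2 of them were higher in mRNA, Pemt (adjusted p = 0.0185) and Inmt (adjusted p = 0.0238), beside 7.92% of all genes. With voom on recovered reads 1 was called lower in RPF. The 9 genes of polyamine synthesis and methionine salvage, the 4 of AHCY-like proteins and adenosine removal, and Mettl16, the methyltransferase that controls Mat2a mRNA, held none in mRNA or RPF either. At an adjusted p under 0.05 in limma Ahcyl1, an AHCY-like protein (log2 change -0.92, adjusted p = 0.0279), and Enoph1 of methionine salvage (log2 change -0.81, adjusted p = 0.0363) were lower in mRNA, both chosen after their values were seen. In TE the called genes of all lists were Abcd4 and Enoph1, which were higher, and Pemt, Csad and Mettl16, which were lower, named here as a complete count and chosen after their values were seen. Their adjusted p-values in limma ran from 0.364 to 0.390. The mRNA of Abcd4 was lower in both HB libraries, as given above. Abcd4, Enoph1 and Mettl16 rested on 12, 10 and 18 RPF reads in all. In HB1 and HB2 Pemt rested on 36 and 5 RPF reads, and Csad on 9 and 2. Each of these calls was lost when certain libraries were left out: HF1 for Abcd4, HF2 or HB2 for Enoph1, and any of HF1, HF2 and HB2 for Pemt, Csad and Mettl16. A pseudocount of 0.1 ended the calls of Abcd4, Pemt and Mettl16, a common RPKM sum those of Abcd4 and Enoph1, and a common median that of Mettl16. Over the alternatives the TE changes ran from 1.57 to 3.36 for Abcd4, 1.46 to 2.79 for Enoph1, -3.39 to -1.37 for Pemt, -3.36 to -1.60 for Csad and -3.80 to -1.46 for Mettl16.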

How the data were processed

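The authors mapped RNA-seq and Ribo-seq reads to mm10 and deposited RPKM per gene and library, without pooling replicates. They used edgeR for differential mRNA and RPF, which was not used here, and tests were fitted to the deposited RPKM. The aligner's treatment of reads that fit several genes is not given in the sources used here. Whole reads, library totals and gene lengths were recovered from the steps of the deposited RPKM, for 99.9% of RNA-seq values and over 99.9% of Ribo-seq values above 0, and 3 reads served as the floor. Intervals from limma cover the spread of these libraries only.

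For the tests, limma (version 3.58.1, under R version 4.3.3) was fitted with group alone and a variance trend, two-sided and with Benjamini-Hochberg adjustment over every gene tested. Genes with a mean of at least 1 RPKM entered on the scale log2(RPKM + 1), and TE on log2((RPF + 1)/(mRNA + 1)) of libraries with the same number. The steps were tested on simulated data. Coordinates came from GENCODE M21 on GRCm38 and promoters from RefSeq.

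The 10 genes, the other lists and the markers were chosen with earlier results of these data known. All 10 genes are named, with Bhmt and, from each other list, up to 2 genes per direction with the smallest mRNA p among those called in mRNA, and likewise in RPF. Part of what this rule covers is not reported here. The crossed block, scaling to protein-coding reads and summing Ahcy with Gm4737 were chosen after seeing the data. The sources do not say which RNA-seq and Ribo-seq libraries share an animal.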

Additional observations from a re-analysis of the deposited data

How the results depend on the processing

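Limits: with 2 libraries a group and few Ribo-seq reads, directions of the 10 genes often turned with 1 library. Left-out libraries moved the mRNA log2 change from -0.51 to 0.025 for Mat1a, -0.11 to 0.50 for Mat2a, -0.040 to 0.88 for Mat2b, 1.27 to 2.09 for Gnmt and -0.96 to 0.34 for Nnmt. The RPF ranges were -1.37 to 0.44 for Mat2a, -2.16 to 0.0074 for Mat2b, -0.23 to 0.92 for Gnmt, -1.42 to -0.71 for Ahcy, -1.54 to 0.071 for Mtr, -0.96 to 0.82 for Mtrr and -0.21 to 0.72 for Nnmt. The TE ranges were -2.09 to -0.58 for Gnmt, -1.87 to 0.55 for Mat2a, -0.52 to 0.30 for Cbs, -0.53 to 1.57 for Mtrr and -0.55 to 1.68 for Nnmt.

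At a common median Mat1a mRNA was 0.029, Mtrr RPF 0.25 and Cbs TE 0.22. At a common RPKM sum the RPF changes were -0.53 for Gnmt, -0.65 for Cbs and -0.60 for Nnmt, and Nnmt TE was -0.25. In Ribo-seq that sum held 418561 and 778452 RPKM of Mir122 in HB1 and HB2. Scaled to protein-coding reads Mtrr RPF was 0.022 and Cbs TE 0.037, and with a pseudocount of 0.1 Mtrr RPF was 0.080. The cause of these turns was not tested.

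Of the 10 genes, none was called higher in mRNA with no filter, and left-out libraries gave 0 to 1. The count called lower in RPF, 1, was 0 at an adjusted p under 0.05, at a common median, with no trend, scaled to protein-coding reads, with Ahcy and Gm4737 summed and with voom on recovered reads, 3 at a common sum, and 0 to 2 with a library left out. For TE, 2 were called lower at a common sum and 0 to 1 with a library left out.

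Over all genes in mRNA, 246 were called higher and 701 lower, against 846 and 2044 at an adjusted p under 0.05, 77 and 188 with no filter, 540 and 291 at a common median, and 166 to 502 and 549 to 1048 with a library left out. In RPF 177 were higher and 879 lower, against 0 and 0 at an adjusted p, 41 and 2659 at a common sum, 349 and 421 at a common median, 437 higher with voom, 311 lower at a mean of at least 5 RPKM, and 57 to 524 and 722 to 2609 with a library left out. In TE 141 were higher and 435 lower, against 0 and 0 at an adjusted p (1154 at an unadjusted p under 0.05 in limma), 71 and 179 at a mean of at least 5 RPKM, 42 and 1332 at a common sum, 259 and 253 at a common median, and 63 to 455 and 123 to 1266 with a library left out. A common median moved the median change of all genes from -0.19 to 0.08 in mRNA and from -0.43 to -0.10 in RPF, and a common sum moved the latter to -1.16.

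With the replicate number as a block (replicate block), 498 genes were called higher and 1229 lower in mRNA, and the calls on the 10 genes were kept, Gnmt in mRNA and Ahcy in RPF. Of the 41 other pathway genes, 6 were called higher and 1 lower in mRNA under this block, against 3 and 0 without it, and 1 higher and 3 lower in RPF, against 1 and 2. The methyltransferases held 2 of the 6 and, in RPF, 1 of the 3. Same-numbered HF and HB libraries had correlations of deviations of -0.104 in mRNA and -0.0138 in RPF across genes, so the numbers were not taken as pairs. The crossed block, added after seeing the data, gave 474 higher and 1303 lower in mRNA, with 4 and 1 of the 41 genes. The voom alternative used plain library totals without a further normalization factor.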
